A study of Homo sapiens with 32 samples.

Results

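HEK293 cells, an established human embryonic kidney line, received angiotensin II (AII) together with epidermal growth factor (EGF) for 6 h and were compared with unstimulated control cells. Taken from the sample labels, the comparison rests on 4 libraries with AII + EGF and 4 control libraries, which are 8 of the 32 libraries of the series. The cells of every group, controls included, had been transiently transfected with a plasmid for the AII receptor AT1R, driven by a CMV promoter, and were kept in serum-free medium. The labels do not give the share of cells that took up the plasmid. AII was given at 1 nmol/l and EGF at 10 µg/l. The 4 libraries with EGF alone and the 4 with AII alone after 6 h, from cells transfected in the same way, served for comparison. The counts of total RNA covered 57773 annotated genes. Of these, 42566 had at least 1 read in the 16 libraries after 6 h, and 18618 had enough reads to be tested.

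EGF binds the receptor tyrosine kinase EGFR, which activates RAS, RAF, MEK and ERK. AII binds AT1R, a G-protein-coupled receptor that mobilises calcium through Gq and can also reach ERK, protein kinase C and the actin cytoskeleton. Both routes can converge on serum response factor (SRF), which binds CArG boxes in promoters of immediate early genes, such as those of the EGR and FOS transcription factors. The products of early genes drive later genes, while induced phosphatases, Sprouty and NAB proteins dampen the response.

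Total counts were 4445377 to 6168318 in control and 5518193 to 7071086 with AII + EGF. Pairs of AII + EGF libraries differed by a chi-square of 1.95 to 4.67 per gene, and pairs of controls without control replicate 1 by 3.1 to 4.7. Control replicate 1 stood apart with 8.39 to 10.5 against the other controls. The labels give no replicate numbers, and those used here follow the order of the library titles within each group. No pair agreed within sampling noise. The labels do not say whether the libraries of a group came from separate cultures, so that errors and p-values measure the spread between these libraries, which may be technical. The HEK293 markers VIM and NEFM were abundant, with at least 1391 and 1548 counts in each of the 8 libraries. Of the defining markers of other cell types, PTPRC, LYZ, CNN1, CDH5 and DCN had at most 3 counts in a library, and CD3E had 0. MYH11 and COL3A1, a smooth muscle and a stromal marker, were read in every library, with at least 75 and 112 counts.

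A gene was called regulated when edgeR's quasi-likelihood test gave a false discovery rate (FDR) below 0.05, the fold change exceeded 1.5 and the mean level exceeded 5 FPM, the unit of fragments scaled to the depth of each library, in the group where it was higher. AII + EGF changed 363 genes, which is 1.95% of the genes tested. Of these, 258 were higher (1.39%) and 105 lower (0.564%) than in control. Counts of called members in each gene list below are to be read beside these shares. The median log2 fold change was 0.835 among the higher and -0.763 among the lower genes, beside -0.0139 over all tested genes. Changes above 8-fold occurred in 6 of the higher and 0 of the lower genes, and changes above 2-fold in 73 and 20. In 330 of the 363 called genes the AII + EGF libraries lay outside the range of the controls, which held for 12.1% of all tested genes. By the FDR alone 1136 genes passed (6.1%), 744 higher (4%) and 392 lower (2.11%). Without control replicate 1, 281 genes were called higher and 100 lower. Genes that do not code for proteins made up 5.43% of the higher, 21.9% of the lower and 28.9% of the tested genes.

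**Figure D1:**
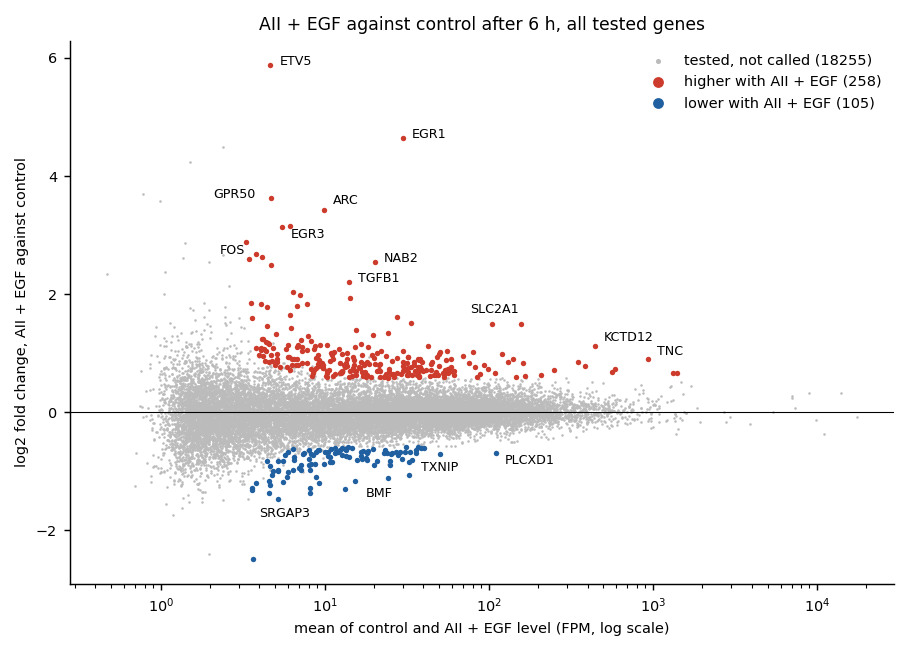
Log2 fold change of AII + EGF against control after 6 h (y axis) by mean level of both groups in FPM (x axis, log scale), 1 point per tested gene. The 258 higher genes (red) reach a log2 fold change of 5.87 at ETV5, while the lowest of the 105 lower genes (blue) is AC005537.2 at -2.48.

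The transcription factor genes ETV5 and EGR1 had the largest fold changes of the called genes. ETV5, a PEA3-type ETS factor at the end of ERK signalling (chr3:185764103-185828107, minus strand, GRCh37), was at 0.231, 0.319, 0 and 0 FPM in the control libraries. With AII + EGF its level was 6.61, 8.72, 12.4 and 9.02 FPM. The controls thus held 3 reads in all and the AII + EGF libraries 230, a depth-corrected ratio of 68.2 with a 95% interval of 23 to 333 that covers counting error only. For the related ETV1, 4 reads in the controls stood against 110 with AII + EGF, a ratio of 24.5 (9.28 to 91.3). ETV1 and ETV4, with log2 fold changes of 4.49 ± 0.59 and 1.85 ± 0.40 (SE), had an FDR below 0.05 but stayed under 5 FPM and were not called; both are named after their values were seen.

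EGR1, an immediate early zinc finger factor (chr5:137801168-137804992, plus strand, GRCh37), reached the highest level of the strongly induced factors. Its level was 1.39, 1.91, 2.87 and 2.81 FPM in control libraries and 68.4, 60.3, 52.9 and 49.2 FPM with AII + EGF. The groups were far apart, with a log2 fold change of 4.64 ± 0.17 (FDR 9.53e-15). EGR3, its close relative, was at 1.39, 1.12, 0.958 and 0.992 FPM in controls and 11.4, 9.81, 7.91 and 10.2 FPM with AII + EGF, again without overlap (log2 fold change 3.13 ± 0.25, FDR 1.02e-08). EGR2 was too rare for the test across genes. It had 1 to 4 reads in a control library and 9 to 18 in an AII + EGF library, with means of 0.439 ± 0.18 and 2.2 ± 0.752 FPM (SD, n = 4; two-sided exact permutation p = 0.0286, which is the minimum reachable with this number of libraries). NAB2, a corepressor that EGR factors induce and that restrains them, rose from 5.94 ± 1.57 to 34.3 ± 2.81 FPM (SD, n = 4; log2 fold change 2.54 ± 0.18). Its relative NAB1 was at 65.1 ± 5.11 and 58.7 ± 2.65 FPM and did not pass the test (-0.15 ± 0.08). Thus 3 of the 4 tested EGR and NAB genes were called higher, beside 1.39% of all tested genes.

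Promoter sequences are shown for members of these families because motifs of SRF and of EGR factors lie close to the starts of both called and uncalled genes. Each line gives 150 bases upstream of a start in RefSeq on GRCh38.p14, read 5′ to 3′ on the strand of the gene. Capitals mark CArG boxes in EGR1 and SRF, and the EGR motif GCGGGGGCG in SRF, NAB2, NAB1 and TGFB1. In NAB1, which carries overlapping copies, and in TGFB1 the motif is on the opposite strand.
EGR1 (chr5:138465329-138465478, plus strand): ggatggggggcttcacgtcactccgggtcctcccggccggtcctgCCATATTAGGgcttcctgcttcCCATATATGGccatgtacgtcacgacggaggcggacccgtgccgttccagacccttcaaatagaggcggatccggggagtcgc
SRF (chr6:43171119-43171268, plus strand): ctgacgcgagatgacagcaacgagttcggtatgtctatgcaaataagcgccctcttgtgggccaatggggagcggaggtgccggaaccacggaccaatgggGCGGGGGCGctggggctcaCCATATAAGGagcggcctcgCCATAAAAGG
NAB2 (chr12:57088964-57089113, plus strand): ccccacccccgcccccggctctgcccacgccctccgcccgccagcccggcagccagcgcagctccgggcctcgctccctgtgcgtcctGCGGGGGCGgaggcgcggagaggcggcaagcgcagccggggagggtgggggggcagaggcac
NAB1 (chr2:190648745-190648894, plus strand): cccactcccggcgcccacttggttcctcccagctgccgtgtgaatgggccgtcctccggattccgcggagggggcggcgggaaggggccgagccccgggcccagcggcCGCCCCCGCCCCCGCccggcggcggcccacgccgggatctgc
TGFB1 (chr19:41353923-41354072, minus strand): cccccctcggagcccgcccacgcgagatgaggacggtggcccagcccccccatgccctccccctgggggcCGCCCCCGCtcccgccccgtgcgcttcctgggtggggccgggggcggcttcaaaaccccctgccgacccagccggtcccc

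EGR1 and SRF both hold a pair of CArG boxes in this stretch, and only EGR1 of them was called. SRF was at 68, 67.1, 72.2 and 79.1 FPM in controls and 77.2, 60.7, 70.7 and 71.4 FPM with AII + EGF, with overlapping groups (log2 fold change -0.03 ± 0.09, FDR 0.891). Whole windows of 300 bases, 250 before and 50 after each start, were searched on both strands. The EGR motif was in 15.7% of the 312 windows of higher genes, 9.28% of the 97 windows of lower genes and 7.79% of the 16616 windows of all tested genes. The AP-1 motif TGAGTCA was in 6.73%, 2.06% and 3.45% of these windows, and the cAMP response element TGACGTCA in 3.85%, 0% and 2.74%. The ETS motif CCGGAAG was in 7.37%, 10.3% and 16% of them, and the CArG box in 1.28%, 1.03% and 1.08%. Windows were found for 189 of the 258 higher genes, 68 of the 105 lower genes and 11441 of all tested genes. A match describes the letters of a window and shows no binding.

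Genes of AP-1 factors were also among the calls. FOS, the inducible partner of JUN in AP-1, was at 0.694, 0.797, 0.958 and 1.49 FPM in controls and 7.51, 7.81, 6.59 and 4.51 FPM with AII + EGF. Every AII + EGF library exceeded every control (log2 fold change 2.68 ± 0.30, FDR 2.89e-06). MAFF (1.25 ± 0.29), FOSL2 (0.67 ± 0.11) and JUNB (0.66 ± 0.20) were also called higher. Thus 4 of 11 tested AP-1 genes were called higher and 0 lower, beside 1.39% and 0.564% of all tested genes. By the FDR alone 6 of the 11 were higher and 0 lower. FOSL2 was not called without AII + EGF replicate 1, and JUNB was called in only 1 of the 8 fits with a library left out, that without control replicate 1. JUN itself was abundant, at 363.1, 287.7, 226.7 and 305.3 FPM in controls and 309.2, 306.4, 327 and 354.3 FPM with AII + EGF. Its groups overlapped (log2 fold change 0.13 ± 0.10, FDR 0.533), and JUND did not pass the test either (0.23 ± 0.12).

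ARC, an immediate early gene best known from active neurons, was at 0.694, 1.44, 1.15 and 3.14 FPM in controls and 17.5, 15.6, 21.4 and 18.5 FPM with AII + EGF (log2 fold change 3.43 ± 0.27, FDR 9.51e-09). The groups did not overlap. Of the 11 tested genes in this list of other immediate early genes, the nuclear receptor NR4A3 (0.79 ± 0.23) was the only further call, kept in 2 of the 8 fits with a library left out, those without control replicate 1 and without AII + EGF replicate 1. MYC, a growth-promoting factor in the same list, was at 501.9 ± 24 and 499.1 ± 16.8 FPM and did not pass the test (-0.01 ± 0.08). TGFB1, the gene of the cytokine TGF-beta 1 (chr19:41807492-41859827, minus strand, GRCh37), was at 3.01, 4.63, 5.75 and 6.12 FPM in controls and 23.4, 29.8, 17.9 and 21.2 FPM with AII + EGF. Its rise (log2 fold change 2.21 ± 0.20, FDR 9.48e-08) was the only call among 14 tested genes of TGF-beta ligands, SMAD inhibitors and ID proteins, where SKI (0.15 ± 0.08) and SKIL (-0.08 ± 0.11) did not pass the test.

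**Figure D2:**
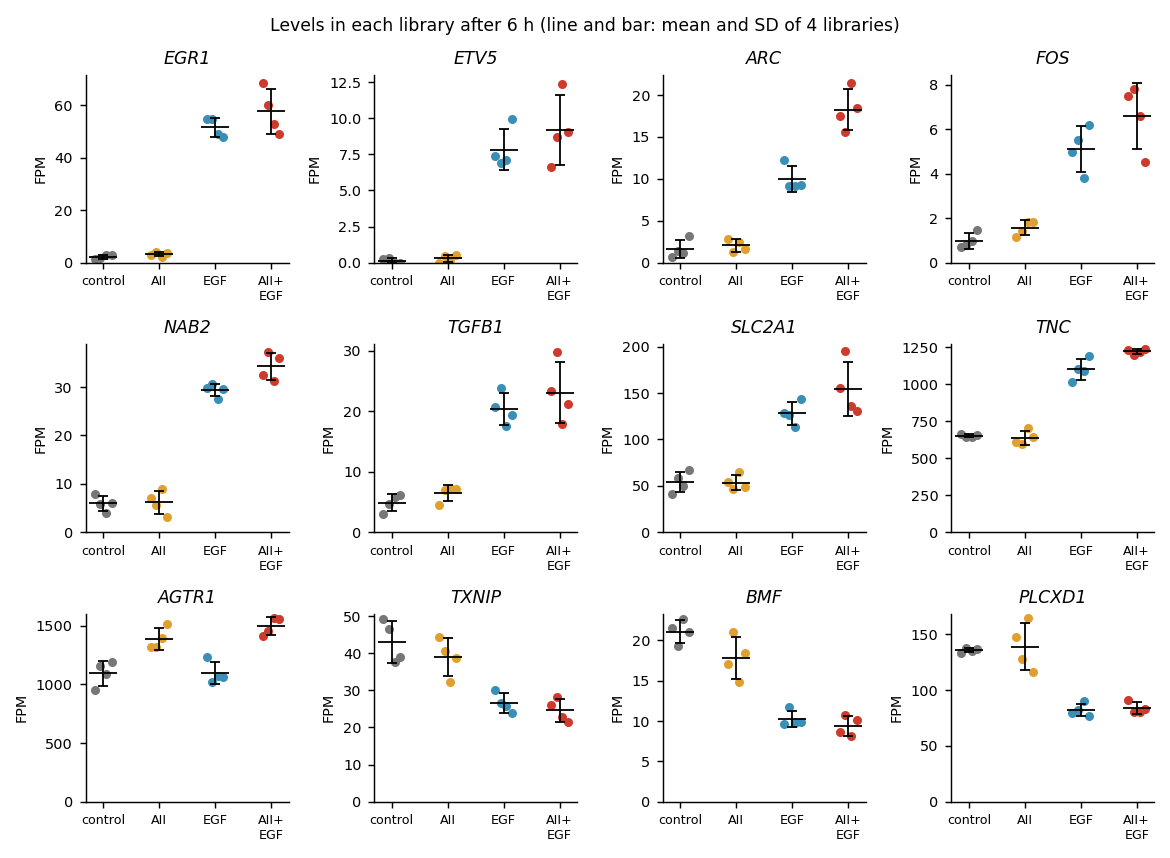
Level in FPM (y axes, from 0) of 12 genes in each of the 16 libraries after 6 h, by condition (x axes); points are libraries, lines and bars the mean and SD of 4 libraries. The AII + EGF points of EGR1, ETV5, ARC, FOS, NAB2, TGFB1, SLC2A1, TNC and AGTR1 lie above every control point and those of TXNIP, BMF and PLCXD1 below, and for ARC, NAB2, TNC and AGTR1 they also lie above every EGF point.

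The other large rises were in genes of varied function. GPR50, an orphan receptor related to melatonin receptors, was at 0.694, 0.797, 0.192 and 0.992 FPM in controls and 9.11, 8.9, 8.49 and 8.27 FPM with AII + EGF (log2 fold change 3.63 ± 0.37). TNFRSF12A, the receptor of the cytokine TWEAK, was at 0.463, 0.319, 0.958 and 1.32 FPM and 4.11, 6.36, 4.98 and 7.97 FPM (2.89 ± 0.37). CPLX1, a complexin that binds the SNARE complex of vesicle fusion, was at 1.39, 0.957, 0.958 and 1.32 FPM and 6.97, 7.26, 6.74 and 7.67 FPM (2.62 ± 0.26). In all of these the AII + EGF libraries were far above the controls. The zinc finger gene ZCCHC12 was at 0.925, 1.44, 1.34 and 1.16 FPM in controls and 9.83, 10.2, 13.9 and 10.7 FPM with AII + EGF (3.16 ± 0.30). PPP2R2C, a regulatory subunit of protein phosphatase 2A, was at 0.925, 0.797, 0.766 and 1.32 FPM and 5, 7.99, 4.69 and 6.02 FPM (2.59 ± 0.35). The groups of both genes did not overlap.

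The largest gains in level were in abundant transcripts with modest fold changes. The stress-induced chaperone genes HSPA1B (chr6:31795515-31798031, plus strand, GRCh37) and HSPA1A (chr6:31783320-31785723, plus strand, GRCh37) are near-identical copies, so that the assignment of reads between them is uncertain. HSPA1B was at 1449, 1121.1, 875.1 and 904 FPM in controls and 1747.5, 1412.5, 2049.9 and 1660.0 FPM with AII + EGF. HSPA1A was at 1386.3, 1053.7, 803.8 and 858.4 FPM and 1736.2, 1352.7, 1888.3 and 1540.4 FPM. The groups overlapped in both (log2 fold changes 0.66 ± 0.18 and 0.67 ± 0.17, FDR 0.0277 and 0.0212). HSPA1B kept the call only without control replicate 1 or AII + EGF replicate 2, and HSPA1A lost it without AII + EGF replicate 1 or 3 or control replicate 3 or 4.

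TNC, the matrix protein tenascin-C, was at 663.6, 642.6, 642.9 and 654.6 FPM in controls and 1232.2, 1197.1, 1217.1 and 1234.7 FPM with AII + EGF (log2 fold change 0.91 ± 0.06, FDR 1.72e-09). KCTD12, an auxiliary subunit of GABA-B receptors, was at 263.7, 273.7, 281.3 and 299.7 FPM and 629.3, 600.3, 609 and 599 FPM (1.12 ± 0.07, FDR 2.12e-10). NEFM, a neurofilament protein, was at 358, 435.9, 453.4 and 524.8 FPM and 690.0, 708.1, 811.4 and 737.5 FPM (0.73 ± 0.10, FDR 3.27e-05). None of these overlapped, and the libraries of each group lay close together for TNC and KCTD12. NEFM was the only call among 5 tested neuronal filament and secretory genes, where NEFL (-0.03 ± 0.10) and INA (0.44 ± 0.24) did not pass the test.

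Feedback inhibitors of the RAS-ERK route were called in part. Of the 5 tested Sprouty and SPRED genes, which curb receptor tyrosine kinase signalling to ERK, 4 were called higher and 0 lower. Over all tested genes these shares were 1.39% and 0.564%. SPRED2 had the largest change, from 17.2 ± 1.59 to 49.6 ± 3.53 FPM (log2 fold change 1.52 ± 0.10), followed by SPRY2 (0.94 ± 0.14), SPRED1 (0.91 ± 0.11) and SPRY1 (0.63 ± 0.13). SPRY1 was not called without AII + EGF replicate 2 or control replicate 3, and SPRY3 (-0.24 ± 0.32) did not pass the test. Of the 9 tested dual-specificity phosphatases, DUSP5 (1.83 ± 0.25), which inactivates ERK in the nucleus, and DUSP4 (0.91 ± 0.18) were called, and the abundant DUSP16 (0.10 ± 0.07) and DUSP7 (0.16 ± 0.09) did not pass the test. ERF, an ETS repressor under ERK control, was called at 0.60 ± 0.12, but not without control replicate 1 or 2 or AII + EGF replicate 2 or 4. ETV3 (0.01 ± 0.10) and ETV6 (0.24 ± 0.19), of the same list of 6 tested genes, did not pass the test. Of 19 tested components from RAS to ERK 0 were called, and the median log2 fold change was 0.039 with a range of -0.249 to 0.505. The abundant NF1 (0.11 ± 0.07), a RAS inactivator, did not pass the test.

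Genes of glucose uptake, glycolysis and the hypoxia response made up the list with the most calls. Of 19 tested members 8 were higher (42.1%, beside 1.39% of all tested genes) and 0 lower, and the median log2 fold change was 0.472. The glucose transporter SLC2A1 rose from 54.1 ± 11.3 to 154.4 ± 29.2 FPM (1.5 ± 0.14, FDR 9.48e-08) and its relative SLC2A3 from 2.43 ± 0.883 to 10.5 ± 4.49 FPM (2.04 ± 0.31). Glycolytic genes among the calls were the hexokinase HK2 (1.99-fold), the phosphofructokinase PFKP (1.81-fold) and the lactate dehydrogenase LDHA (1.61-fold). The others were NDRG1, a stress-responsive gene (2.82-fold), EPAS1, which encodes the hypoxia-inducible factor HIF-2 alpha (2.23-fold), and EGLN3, a prolyl hydroxylase of such factors (1.67-fold). The most abundant uncalled members ENO1 (0.45 ± 0.06) and ALDOA (0.38 ± 0.07), both glycolytic enzymes, had an FDR below 0.05 but stayed under the fold threshold. By the FDR alone 13 of the 19 genes were higher and 0 lower.

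Among 19 tested FOXO factors and targets, 1 was called higher and 2 lower, beside 1.39% and 0.564% of all tested genes. TXNIP, an arrestin-related protein that restrains glucose uptake, was at 49.3, 46.6, 37.7 and 38.9 FPM in controls and 26.1, 28.2, 22.8 and 21.5 FPM with AII + EGF (log2 fold change -0.81 ± 0.12, FDR 0.000112), without overlap. Its relative ARRDC4 moved the other way, from 33.3 ± 1.83 to 67.8 ± 6.4 FPM (1.03 ± 0.09). FOXO4 (-0.63 ± 0.15) was called lower, but not without AII + EGF replicate 4, while the abundant FOXO3 (-0.07 ± 0.06) and IRS2 (0.11 ± 0.09) did not pass the test.

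In the list of 14 tested PHLDA and BCL2-family genes, 2 were called higher and 1 lower, beside 1.39% and 0.564% of all tested genes. BMF, a pro-apoptotic BH3-only gene, fell from 21.1 ± 1.38 to 9.39 ± 1.2 FPM (-1.17 ± 0.14, FDR 6.8e-06). The anti-apoptotic BCL2 rose from 11.3 ± 1.44 to 22.3 ± 2.76 FPM (0.97 ± 0.13), and PHLDA2, a pleckstrin homology gene, rose 3.02-fold. MCL1 (0.28 ± 0.08) had an FDR below 0.05 but stayed under the fold threshold, and with a library left out it passed the FDR only without control replicate 1 or AII + EGF replicate 1 or 2. BCL2L11 (-0.21 ± 0.08) did not pass the test.

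Of 15 tested ATF4 genes and targets 3 were called higher and 0 lower, beside 1.39% and 0.564% of all tested genes. They were the amino acid transporter SLC7A5 (0.91 ± 0.13), the transcription factor CEBPB (0.90 ± 0.18) and the pseudokinase TRIB3 (0.66 ± 0.20). TRIB3 kept the call only without control replicate 3 or 4. ATF4 itself (-0.11 ± 0.10) and PHGDH (-0.02 ± 0.10), an enzyme of serine synthesis, did not pass the test. In the list of 12 circadian clock genes the repressors BHLHE40 (0.96 ± 0.13) and BHLHE41 (0.77 ± 0.19) were called higher and DBP (-0.68 ± 0.20) lower. BHLHE41 was not called without control replicate 2 or AII + EGF replicate 3, and DBP in none of the 8 fits with a library left out. CLOCK (0.08 ± 0.10) did not pass the test, and NR1D2 (-0.48 ± 0.09) passed the FDR only.

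The receptor tyrosine kinases EPHA2 (1.32 ± 0.15) and EPHB2 (0.65 ± 0.11) were the calls among 15 tested Eph receptors and ephrins, where EPHA7 (-0.41 ± 0.07) passed the FDR only and EPHB4 (0.04 ± 0.11) did not pass the test. KLF13 (0.80 ± 0.08) was the call among 13 tested KLF factors, beside KLF3 (0.04 ± 0.08), which did not pass the test, and KLF8 (-0.37 ± 0.08), which passed the FDR only. ZYX (0.62 ± 0.10), the focal adhesion protein zyxin, was the call among 18 tested cytoskeletal SRF targets. By the FDR alone 5 of the 18 were higher and 0 lower, beside 4% and 2.11% of all tested genes. The median log2 fold change of this list was 0.167. The filamin gene FLNA (0.31 ± 0.08) passed the FDR only, though not without control replicate 2 or 3 or AII + EGF replicate 3 or 4. The actin gene ACTG1 (0.18 ± 0.08) did not pass the test. INSIG1 (0.72 ± 0.07), a brake on sterol synthesis, was the call among 14 tested genes of cholesterol and fatty acid synthesis, beside FASN (0.20 ± 0.12), which did not pass the test, and HMGCS1 (0.25 ± 0.07), which passed the FDR only and, with a library left out, passed it only without AII + EGF replicate 4. STC2 (0.91 ± 0.11), a secreted glycoprotein, was the call among 5 tested secreted growth factor response genes, where FGF2 (0.14 ± 0.12) and PLAUR (0.61 ± 0.21) did not pass the test. Over all tested genes 1.95% were called.

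Promoters of called genes outside the EGR family are shown for the EGR motif in the feedback inhibitor SPRY2, on the opposite strand, and for the cAMP response element, also in capitals, in EPHA2, MAFF and LDHA. Length, build and reading direction are as above. The cAMP response element was also in windows of uncalled genes such as JUND, SKIL and NF1.
SPRY2 (chr13:80341127-80341276, minus strand): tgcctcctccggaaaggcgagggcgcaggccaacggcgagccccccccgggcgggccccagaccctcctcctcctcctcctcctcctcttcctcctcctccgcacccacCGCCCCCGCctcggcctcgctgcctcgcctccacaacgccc
EPHA2 (chr1:16156070-16156219, minus strand): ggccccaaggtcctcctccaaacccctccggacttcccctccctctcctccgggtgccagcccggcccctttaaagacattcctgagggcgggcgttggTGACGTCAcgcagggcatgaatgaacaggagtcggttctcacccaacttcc
MAFF (chr22:38201844-38201993, plus strand): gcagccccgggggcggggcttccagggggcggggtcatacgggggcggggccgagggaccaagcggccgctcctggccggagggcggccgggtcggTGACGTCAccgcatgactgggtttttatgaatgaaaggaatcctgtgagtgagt
LDHA (chr11:18394413-18394562, plus strand): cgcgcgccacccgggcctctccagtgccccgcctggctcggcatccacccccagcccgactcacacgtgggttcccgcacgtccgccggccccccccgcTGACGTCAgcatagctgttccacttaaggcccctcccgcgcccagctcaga

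SRF, its tested cofactors and the ERBB receptors were not called. Among 6 tested genes of SRF and its cofactors ELK1, a ternary complex factor, was at 43, 46.1, 51.9 and 48.1 FPM in controls and 73.1, 61, 69.3 and 65.9 FPM with AII + EGF. Its groups did not overlap, but its log2 fold change of 0.51 ± 0.08 (FDR 0.000347) stayed under the fold threshold. MKL1, an actin-controlled cofactor, was at 39.8, 34.8, 30.5 and 35.1 FPM and 32.3, 30, 40.3 and 34.9 FPM, with overlap (-0.02 ± 0.11), and MKL2 (-0.11 ± 0.08) and ELK4 (-0.01 ± 0.09) did not pass the test. MYOCD, the myocardin gene, had 0 reads in all 8 libraries. EGFR, 1 of 11 tested ERBB receptors and receptor inhibitors, was at 48.8, 50.7, 42.3 and 40.7 FPM in controls and 60.8, 67.7, 57.4 and 56.2 FPM with AII + EGF. Its groups did not overlap (log2 fold change 0.41 ± 0.10, FDR 0.0123), the fold stayed under the threshold, and the FDR was not passed without AII + EGF replicate 2 or control replicate 4. CBL, a ubiquitin ligase of EGFR, was at 0.25 ± 0.08 and passed the FDR only, which with a library left out held only without control replicate 2. LRIG2 (-0.21 ± 0.08) did not pass the test. HBEGF, a ligand of EGFR, had 3 to 8 reads in a control library and 5 to 15 with AII + EGF (two-sided exact permutation p = 0.343), and ADAM10 (0.14 ± 0.08) and ADAM17 (-0.12 ± 0.08), which shed such ligands, did not pass the test.

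No member was called in the lists of the MYC network (10 tested), D cyclins and CDK inhibitors (10), mRNA decay regulators (8), the Notch pathway (14), G1/S and replication (16) and ribosome biogenesis (17) either. The share called over all tested genes was 1.95%. By the FDR alone 3 of 17 ribosome biogenesis genes were higher, 2 of 10 D cyclins and CDK inhibitors and 1 of 16 G1/S genes. The cyclin gene CCND1 (0.56 ± 0.08) was among them. No member of the lists was lower by the FDR alone, and 4% of all tested genes were higher by it. The ribosome biogenesis list had a median log2 fold change of 0.235. The other abundant members CCND2 (0.10 ± 0.07), MGA (0.04 ± 0.06), ZFP36L2 (0.23 ± 0.09), BTG3 (0.07 ± 0.10), NOTCH1 (-0.01 ± 0.13), MCM4 (-0.09 ± 0.06), MCM7 (0.14 ± 0.08), NCL (0.20 ± 0.08) and NPM1 (0.08 ± 0.09) did not pass the test.

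**Figure D3:**
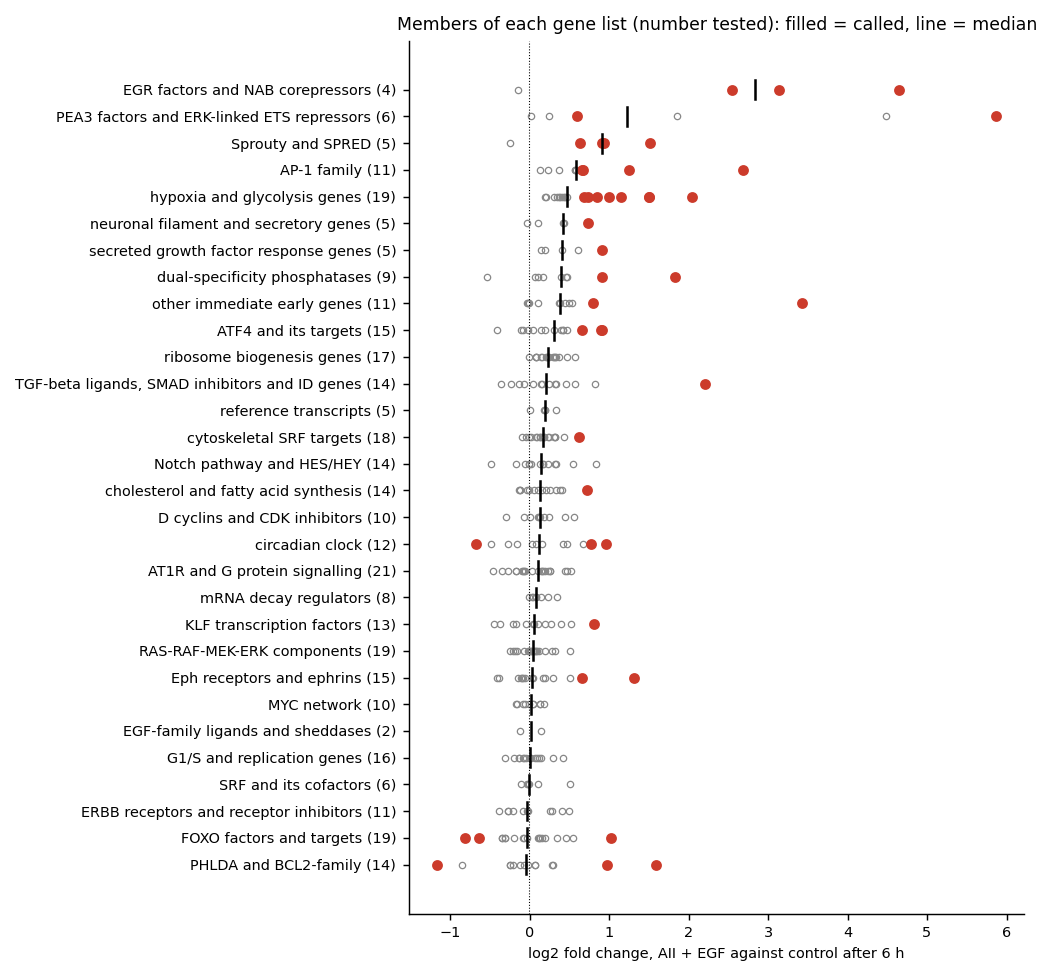
Log2 fold change of AII + EGF against control after 6 h (x axis) for each tested member of each gene list (y axis, number tested in brackets); filled points were called, open points were not, black lines are list medians, and the dotted line is the median of all tested genes. The hypoxia and glycolysis list has 8 filled points to the right of the dotted line, and filled points to its left belong to the circadian, FOXO and BCL2-family lists.

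AGTR1, the gene of AT1R (chr3:148415571-148460795, plus strand, GRCh37), was read at a high level in all libraries. Reads from the plasmid and from the cells' own gene cannot be told apart in these counts. Its level was 950.1, 1155.7, 1086.5 and 1190.5 FPM in controls and 1413.8, 1451.3, 1568.1 and 1554 FPM with AII + EGF. It was 1235.9, 1023.1, 1070.8 and 1059.4 FPM with EGF and 1318.7, 1317.9, 1399 and 1515.4 FPM with AII. Every AII + EGF library exceeded every control and every EGF library. The log2 change was 0.45 ± 0.08 against control (FDR 0.000498, fold under the threshold) and 0.45 against EGF (95% interval 0.29 to 0.61, FDR 0.093). In a fit of the AII + EGF and EGF libraries only, the FDR of the latter was 0.00771. Of all 21 tested genes of AT1R and G protein signalling 0 were called, among them GNA13 (-0.06 ± 0.09), a G protein subunit that did not pass the test.

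Falls in protein-coding genes included those of a signalling protein, a channel and a zinc finger gene. SRGAP3, a GTPase-activating protein of the Slit-Robo pathway, was at 9.25, 8.61, 5.56 and 6.95 FPM in controls and 2.5, 2.72, 2.05 and 3.61 FPM with AII + EGF (log2 fold change -1.47 ± 0.26, FDR 0.000843). HCN3, a hyperpolarisation-activated channel, was at 14.1, 9.73, 10.9 and 11.7 FPM and 4.29, 4.54, 4.98 and 5.11 FPM (-1.28 ± 0.18). The zinc finger gene ZFP14 was at 13.2, 13.2, 12.5 and 12.4 FPM and 5.54, 5.99, 6.44 and 4.36 FPM (-1.20 ± 0.17). In each of these genes all AII + EGF libraries were below all controls. F8, the gene of coagulation factor VIII, was at 5.55, 4.63, 6.51 and 3.8 FPM in controls and 2.86, 1.27, 1.76 and 2.41 FPM with AII + EGF (-1.28 ± 0.28), and it was not called without control replicate 1 or 3. FUT2, a fucosyltransferase, was at 8.79, 9.89, 3.64 and 4.13 FPM and 1.79, 2.91, 3.51 and 1.96 FPM (-1.36 ± 0.34), and it was not called without control replicate 2 or AII + EGF replicate 1 or 4. Both pairs of groups lay apart, for FUT2 by a narrow gap.

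Several of the largest falls were in pseudogenes and non-coding RNAs. AMZ2P1, a pseudogene, was at 9.95, 12.3, 11.3 and 13.1 FPM in controls and 6.08, 4.72, 3.51 and 4.06 FPM with AII + EGF (log2 fold change -1.36 ± 0.20). GUCY1B2, annotated as a pseudogene of a guanylate cyclase subunit, was at 18.5, 20.1, 18.8 and 18 FPM and 7.86, 10.5, 4.98 and 7.52 FPM (-1.30 ± 0.21). The pseudogene ZNF969P was at 6.24, 6.06, 4.22 and 3.8 FPM and 2.68, 3.45, 1.03 and 1.2 FPM (-1.31 ± 0.33). None of these groups overlapped, and the call of ZNF969P was lost without control replicate 1 or 2 or AII + EGF replicate 3 or 4. The lincRNA RP11.19C24.1 was at 7.4, 8.61, 4.6 and 5.46 FPM in controls and 3.75, 2.72, 2.64 and 2.11 FPM with AII + EGF (-1.23 ± 0.24). The processed transcript RP11.8L2.1 was at 3.93, 6.86, 6.51 and 3.97 FPM and 2.68, 1.63, 2.49 and 2.41 FPM (-1.21 ± 0.28) and was not called without control replicate 2 or 3. Both were lower in every AII + EGF library than in every control.

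AC005537.2, a processed transcript, had the most negative log2 fold change (-2.48 ± 0.69), but its controls were at 17.3, 0.638, 5.17 and 1.98 FPM and overlapped the AII + EGF libraries. Without control replicate 1, which held its highest value, or without AII + EGF replicate 1, 2 or 3 it was not called. In the other direction, the lincRNA RP11.161M6.2 rose 3.94-fold and the antisense transcript RP3.512B11.3 3.43-fold. For antisense transcripts, reads from the gene on the opposite strand cannot be told apart, because the sources used here give no strand setting.

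Some of the lower genes were more abundant. PLCXD1, a gene with a phospholipase C domain, was at 133.7, 138.1, 134.9 and 136.9 FPM in controls and 91.5, 80.8, 80.8 and 82.9 FPM with AII + EGF (log2 fold change -0.69 ± 0.09, FDR 2.1e-05). R3HDM2, which encodes a protein with an R3H domain, was at 61.8, 70, 61.7 and 56.9 FPM and 39, 42.9, 36.2 and 35.5 FPM (-0.71 ± 0.11). INPP5D, the inositol phosphatase SHIP1, was at 51.3, 53.4, 35.6 and 34.7 FPM and 22.7, 29.2, 16.7 and 15.6 FPM (-1.07 ± 0.23). The AII + EGF libraries of these genes were all below the controls. CROCC, the ciliary rootlet protein rootletin, was at 61.1, 36.5, 32.8 and 38.7 FPM in controls and 23.9, 21.6, 21.4 and 26.8 FPM with AII + EGF (-0.84 ± 0.15), with the highest value in control replicate 1. Of the 472 tested ZNF genes, 1 was called higher, ZNF395 (0.70 ± 0.09), and 2 lower, the pseudogenes ZNF969P and ZNF815P (-0.92 ± 0.25), a share of 0.636%, and the list median was -0.098. ZNF815P was called in only 3 of the 8 fits with a library left out, those without control replicate 1 or 4 or AII + EGF replicate 2. The abundant ZNF638 (-0.03 ± 0.07) and ZNF207 (-0.04 ± 0.07) did not pass the test. None of 55 tested clustered histone genes was called, and their median was -0.007.

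Among the genes used to check the cell line label, WT1 (1.11 ± 0.28), KRT18 (0.91 ± 0.23) and NEFM of 8 tested HEK293 genes were called higher, and the summed level of the list was 717.7 to 854.3 FPM in controls and 1030 to 1170 FPM with AII + EGF. WT1 was not called without AII + EGF replicate 1 or 4, and KRT18 not without AII + EGF replicate 1 or control replicate 3. VIM (-0.08 ± 0.06) and KRT8 (0.20 ± 0.20) did not pass the test. Of 5 tested proximal tubule genes CUBN (-1.05 ± 0.29) was called lower, though not without control replicate 1 or 2 or AII + EGF replicate 3 or 4, and the list summed to 32.25 to 42.79 FPM in controls and 26.34 to 31.28 FPM with AII + EGF. LRP2 (0.16 ± 0.13) and GGT1 (-0.57 ± 0.21) of that list did not pass the test. The lists of smooth muscle and of stromal cells overlapped between the groups and held 0 calls: smooth muscle with 50.01 to 76.33 and 54.14 to 70.43 FPM, and endothelium and fibroblasts with 33.18 to 64.07 and 33.97 to 44.36 FPM. The part of these marker levels in the results was not tested. Of 5 reference transcripts 0 were called, ACTB at 0.18 ± 0.08 and HSP90AA1 at 0.19 ± 0.07.

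The effects of the single stimuli, measured against the same control libraries, can be set beside the combined one. EGF alone gave 322 calls (1.73%), 194 higher (1.04%) and 128 lower (0.688%), or 1112 genes (5.97%) by the FDR alone. AII alone gave 0 calls in edgeR and in DESeq2, with 845 genes (4.54%) at an unadjusted p below 0.05 in edgeR, and 17 calls in edgeR without the filter on low counts. For the 258 genes called higher with AII + EGF the median log2 fold change was 0.835 with AII + EGF, 0.706 with EGF and 0.0702 with AII. For the 105 lower genes the medians were -0.763, -0.674 and -0.153. Set against AII, AII + EGF gave 348 calls (1.87%), 258 higher (1.39%) and 90 lower (0.483%), or 1104 genes (5.93%) by the FDR alone.

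Set directly against EGF, AII + EGF gave 0 calls in edgeR and in DESeq2, with 1352 genes (7.26%) at an unadjusted p below 0.05 in edgeR. The interaction, the departure of the combined effect from the sum of both log2 effects, also gave 0 calls in both tools, with 1491 genes (8.01%) at an unadjusted p below 0.05 in edgeR. Without the filter on low counts edgeR gave 10 calls against EGF and 48 for the interaction. Those against EGF were ARC, HSD17B8, PDXP, RNF5P1 and the small RNA entries RN7SKP203, RN7SKP71, RNU6.32P, RNU6.19P, SNORD3C and MIR3687. Those of the interaction included small RNA entries such as RNU1.1, RNVU1.7 and SNORA73B, and also HIST3H2A and MFSD8. Among the 258 higher genes 32 had all AII + EGF libraries above all EGF libraries and 3 had all below, which held for 2.85% and 2.73% of all tested genes. Among the 105 lower genes 5 had all AII + EGF libraries below all EGF libraries and 1 had all above. The median log2 difference from EGF was 0.158 for the higher and -0.141 for the lower genes, which were selected by the AII + EGF libraries themselves.

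**Figure D4:**
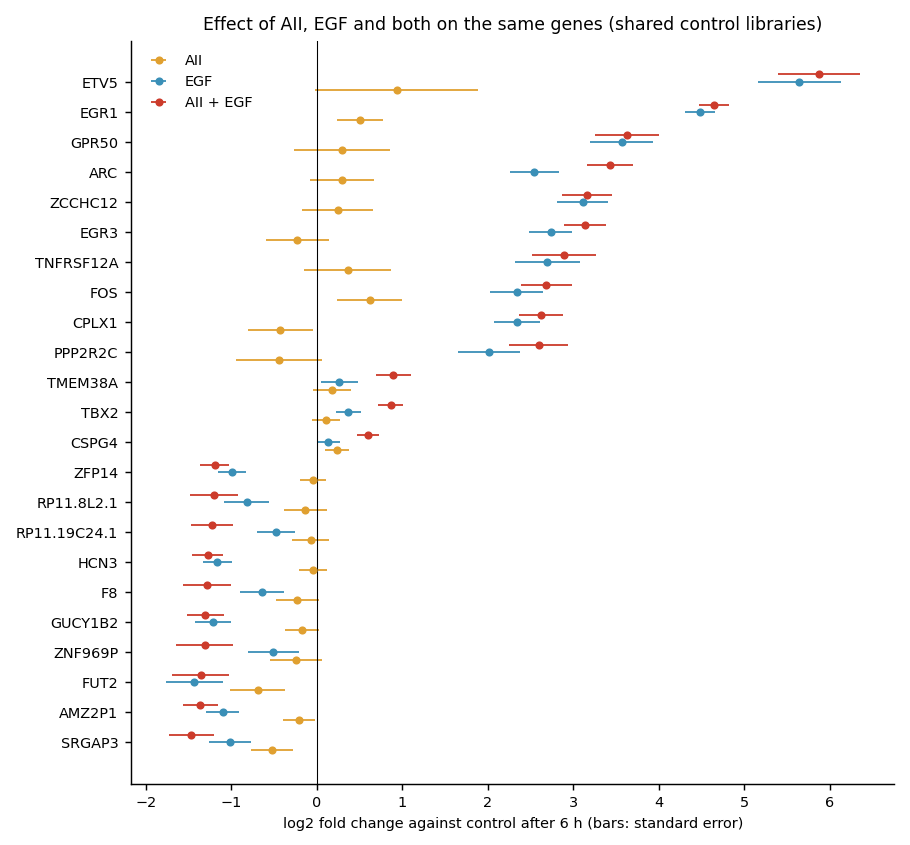
Log2 fold change against control after 6 h (x axis, bars are standard errors) with AII, EGF and AII + EGF, for the 10 largest rises, the 10 largest falls and the called genes with the smallest p against EGF (y axis). The EGF and AII + EGF bars overlap for genes such as EGR1, ETV5 and GPR50. For ARC, TBX2, CSPG4 and TMEM38A, which were chosen by this p, the AII + EGF point lies to the right of the EGF bar. It also does so for EGR3, PPP2R2C, FOS and CPLX1, where the bars overlap.

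The 5 called genes with the smallest p against EGF were chosen for this difference, so that their values are a description. ARC was at 12.3, 9.11, 9.15 and 9.22 FPM with EGF and 2.85, 1.28, 2.5 and 1.57 FPM with AII. Every AII + EGF library exceeded every EGF library. The log2 difference from EGF was 0.88 (95% interval 0.48 to 1.29, FDR 0.578 in edgeR), and the interaction was 0.59 ± 0.43. When the fit held the AII + EGF and EGF libraries only, ARC was called with an FDR of 0.047. CSPG4, a membrane proteoglycan, was at 18.7, 15.5, 15.7 and 19.2 FPM in controls, 17.3, 19.9, 18.9 and 19.5 FPM with EGF and 25.9, 27.4, 27.1 and 24.1 FPM with both. TBX2, a T-box repressor, was at 19.4, 19.9, 14 and 19.8 FPM in controls, 23.6, 22.6, 22.9 and 25.6 FPM with EGF and 31.8, 30, 35.4 and 36.1 FPM with both. The differences from EGF were 0.46 (0.20 to 0.73) for CSPG4 and 0.49 (0.20 to 0.79) for TBX2, and CSPG4 was not called against control without control replicate 2 or 3 or AII + EGF replicate 2 or 3. TMEM38A, a cation channel of the endoplasmic reticulum, was at 3.47, 5.1, 4.41 and 4.63 FPM in controls, 5.47, 6.28, 4.42 and 5.21 FPM with EGF and 7.33, 9.26, 8.93 and 7.67 FPM with both (difference 0.63, 0.23 to 1.04). RP11.19C24.1 was at 5.3, 4.33, 4.1 and 4.97 FPM with EGF and lower with both stimuli (-0.75, -1.26 to -0.24). Each of these differences missed the FDR of 0.05 in the fit with all conditions and the filter on low counts; without that filter ARC was called against EGF.

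For most of the strongly induced early genes the interval of the difference from EGF included 0. The log2 difference was 0.16 (-0.07 to 0.39) for EGR1, 0.35 (-0.11 to 0.81) for FOS, 0.23 (-0.25 to 0.72) for ETV5, 0.17 (-0.16 to 0.50) for TGFB1 and 0.22 (-0.07 to 0.51) for NAB2. For EGR3 the interval did not include 0 (0.40, 0.03 to 0.76), and the FDR was 0.677. With AII alone the log2 fold change was 0.50 ± 0.27 for EGR1, 0.62 ± 0.38 for FOS and -0.23 ± 0.37 for EGR3, none of them called. The medians of the difference from EGF were 0.135 over the 19 hypoxia and glycolysis genes and 0.237 over the 11 AP-1 genes, beside 0.000198 over all tested genes. Lists without calls had positive medians too, such as 0.174 for the Notch pathway and 0.131 for clustered histone genes. Other lists had negative medians, such as -0.069 for EGF-family ligands and sheddases, -0.055 for mRNA decay regulators, -0.044 for RAS to ERK components and -0.038 for KLF factors.

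The titles number the libraries of this time point in 2 consecutive runs with 2 libraries per condition each, which the labels do not call batches. The log2 ratio of mean FPM, AII + EGF to control, was 5.29 in the first and 4.17 in the second run for EGR1, 3.96 and 3.22 for ARC, and 3.36 and 2.18 for FOS. It was 2.80 and 1.72 for TGFB1, 1.81 and 1.19 for SLC2A1, 0.90 and 0.92 for TNC and -0.82 and -0.79 for TXNIP. Each of these genes kept its direction in both runs. With the run as a term in the model 379 genes were called.

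After 24 h the same contrast was smaller for most of these genes. Counts of 4 control and 3 AII + EGF libraries were used for that time, and AII + EGF replicate 2 of that time was not analysed here. In these libraries protein-coding genes held 24.3% to 63.4% of the counts, beside 82.1% to 83.7% after 6 h. In a joint fit the median log2 fold change of the 258 higher genes was 0.849 after 6 h and 0.242 after 24 h, and that of the 105 lower genes was -0.75 and -0.144. Of the higher genes 16 were above control after 24 h with an FDR below 0.05, and 0 of the lower genes were below it, where 74 of 21932 genes (0.337%) passed in either direction. EGR1 was among them, with a log2 fold change of 2.94 ± 0.17 and means of 6.71 FPM in controls and 51.7 FPM with AII + EGF. ETV5 (3.58 ± 0.58), GPR50 (3.0 ± 0.69), ARC (2.38 ± 0.54) and EGR3 (1.51 ± 0.27) were also among the 16. So were NEFM (0.81 ± 0.13) and STC2 (0.87 ± 0.17), whose change between the times was 0.06 ± 0.18 and -0.06 ± 0.25 on the log2 scale.

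The effect differed between the times in 21 of the 363 called genes (FDR below 0.05), beside 0.123% of all genes in the joint fit. It was lower after 24 h in 15 of the higher genes and higher in 6 of the lower genes. Because a call after 6 h was required, a shift toward 0 is favoured by the choice of genes. The difference, 24 h minus 6 h on the log2 scale, was -1.72 ± 0.28 for EGR1, -1.82 ± 0.33 for NAB2, -2.45 ± 0.53 for PPP2R2C, -1.10 ± 0.24 for SLC2A1 and 1.05 ± 0.21 for TXNIP. FOS, with a log2 fold change of 0.42 ± 0.39 after 24 h, missed the FDR for the difference (-2.29 ± 0.60, FDR 0.165). The count of 21 fell to between 5 and 11 without control replicate 1, 2 or 3 of the 6 h group, any of the AII + EGF replicates of the 6 h group, or AII + EGF replicate 3 or 4 of the 24 h group, and it was lowest without the last of these.

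**Figure D5:**
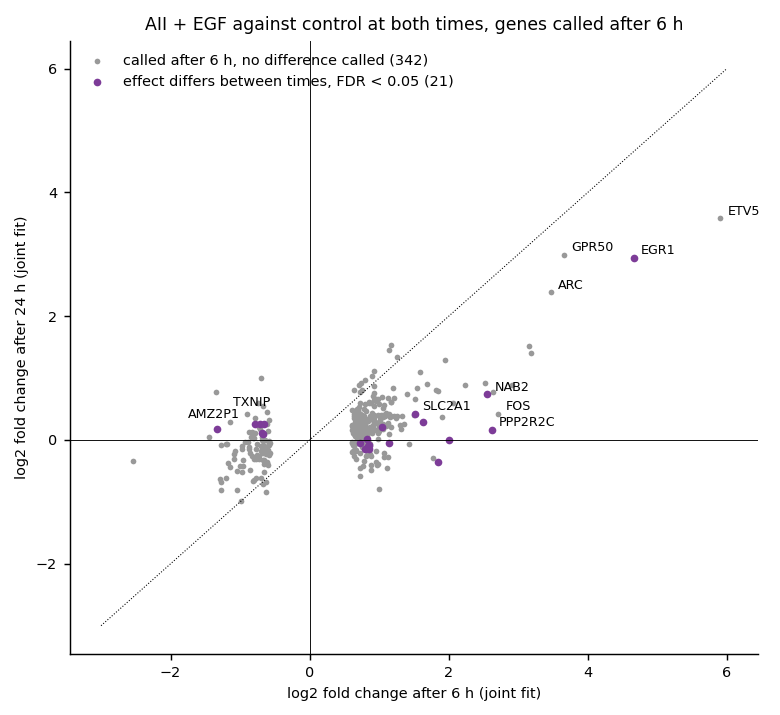
Log2 fold change of AII + EGF against control after 24 h (y axis) against that after 6 h (x axis) in the joint fit, for the 363 genes called after 6 h; purple points are the 21 genes whose effect differed between times, and the dotted line marks equal effects. Most points lie nearer to 0 on the y axis than on the x axis, and EGR1, ETV5, GPR50 and ARC are above 2 at both times.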

How the data were processed

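Per the paper's methods and the submitters' processing notes, the authors isolated total RNA, depleted ribosomal RNA, sequenced paired ends, trimmed adaptors (Trim Galore, cutadapt 1.8.1), mapped to hg19 with TopHat2 2.0.14 and counted reads per gene with featureCounts 1.4.6. In the series text HISAT2 is the mapper. How strand was handled is not given in the sources used here. The authors deposited raw counts without normalisation. In the 24 h table some columns are named as filtered, with no explanation.

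FPM was computed from library sizes with TMM factors. Tests were edgeR 4.0.16 quasi-likelihood F tests (R 4.3.3, filterByExpr) over the 16 libraries after 6 h in 4 conditions; FDR is the Benjamini-Hochberg adjusted p, and ± after a log2 change is its standard error. Counts of 31 libraries entered the joint fit over both times. The procedure was tested on simulated data for AII + EGF against control. Of 200 genes changed 1.5-fold, which is the fold threshold itself, 48% were called, and of 200 changed 2-fold 98.5% were. The changed genes were drawn only from those with a mean level above 2 times the threshold of 5 FPM. These shares therefore do not cover rarer genes such as ETV5, FOS and F8. The comparison with EGF and the interaction were not simulated.

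Named genes were the 10 largest rises and falls without overlap, the 5 largest gains and losses in FPM, all called list members with the 2 most abundant uncalled ones, genes followed in the study, the 5 called genes with the smallest p against EGF and the 5 non-coding calls with the largest change. A few genes that this rule names are not reported here. The comparison, lists and rules were chosen with earlier results of these data known. Promoters came from RefSeq (GRCh38.p14) and gene coordinates from GENCODE on GRCh37. Alternatives were DESeq2 1.42.0, its size factors, upper-quartile factors, no filter on low counts, the FDR alone, an FDR of 0.01, the run of library numbers as a term, the compared groups only and leaving out each library.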

Additional observations from a re-analysis of the deposited data

Results flagged for a closer look

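For 11 of the genes named above, the change with AII + EGF after 24 h was unlike that after 6 h, with an FDR below 0.05 in the joint fit. Differences are log2 values, 24 h minus 6 h, with SE. The difference was negative for SLC2A1 (-1.10 ± 0.24, FDR 0.0472), PPP2R2C (-2.45 ± 0.53, FDR 0.0455), EGR1 (-1.72 ± 0.28, FDR 0.00407), ZNF395 (-0.77 ± 0.16, FDR 0.0454), NAB2 (-1.82 ± 0.33, FDR 0.00963), KLF13 (-0.81 ± 0.18, FDR 0.0455), RP11.161M6.2 (-2.00 ± 0.43, FDR 0.0454). It was positive for TXNIP (1.05 ± 0.21, FDR 0.0292), PLCXD1 (0.77 ± 0.16, FDR 0.04), R3HDM2 (0.81 ± 0.16, FDR 0.0292), AMZ2P1 (1.51 ± 0.33, FDR 0.0455).

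In 11 of the 304 groups of 4 libraries examined (3.62%), 1 library lay far from the other 3, where chance alone marks about 1 group in 20. In control replicate 1 these were SPRED1 (35.4 FPM, others 23.6 to 24.1), ADAM10 (72.6 FPM, others 88.8 to 91.2), NEFL (602 FPM, others 397 to 421), ACTB (1370 FPM, others 1020 to 1080), HSP90AA1 (1110 FPM, others 909 to 941), HIST2H3C (2590 FPM, others 1180 to 1420), HIST2H3A (2590 FPM, others 1180 to 1420). In control replicate 2 these were NPM1 (325 FPM, others 308 to 310). In control replicate 3 these were TBX2 (14 FPM, others 19.4 to 19.9). In AII + EGF replicate 4 these were HSP90AA1 (1090 FPM, others 1110 to 1120), COL1A1 (21.5 FPM, others 13.6 to 14.2).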

How the results depend on the processing

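No paired analysis was possible because libraries of different conditions share no replicate number in their labels. The count of 363 calls was 385 with DESeq2, 363 with its size factors, 363 with upper-quartile factors (240 higher and 123 lower), 379 with the run of library numbers as a term, 312 with the compared groups only, 396 without the filter on low counts, 250 at an FDR of 0.01 (59 lower) and 309 to 394 with 1 library left out, and no called gene changed direction when 1 library was left out. By the FDR alone it was 1136 (744 higher and 392 lower), against AII 1104 and for EGF 1112, since the fold and level thresholds were dropped. Without the filter on low counts (42566 genes) 10 genes were called against EGF, 48 for the interaction and 17 for AII; all of them also passed the filter, and the cause was not tested. With the compared groups only, 1 gene was called against EGF. The count of genes whose effect differed between times was 38 with DESeq2 and 5 to 21 with 1 library left out; the cause was not tested. Some uncalled genes changed sign. With upper-quartile factors the log2 fold change was -0.0077 for ETV3. Without the filter on low counts, the log2 fold change was 0.0155 for MYC, 0.0179 for ELK4, 0.0042 for PHGDH, 0.0197 for NOTCH2, 0.0196 for NOTCH1, 0.0127 for HIST2H3C, 0.0134 for HIST2H3A, 0.0055 for MKL1. With 1 library left out it ranged over -0.176 to 0.0382 for ATF4, -0.2477 to 0.3356 for COL1A1, -0.0837 to 0.0605 for ELK4, -0.0245 to 0.1534 for EPHB4, -0.0548 to 0.0729 for ETV3, -0.135 to 0.318 for HIST2H3A, -0.1356 to 0.3174 for HIST2H3C, -0.0372 to 0.1003 for KLF3, -0.1063 to 0.0422 for MKL1, -0.031 to 0.0244 for MYC, -0.0947 to 0.1282 for NEFL, -0.1227 to 0.1599 for NOTCH1, -0.0262 to 0.0151 for NOTCH2, -0.0874 to 0.0303 for PHGDH, -0.1759 to 0.013 for SKIL, -0.1841 to 0.0637 for SMTN, -0.082 to 0.0279 for SRF. Counting error at this depth limits rare transcripts such as ETV5, FOS and EGR2 in controls.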
